A study of Solanum lycopersicum x Solanum pennellii and Solanum lycopersicum and Solanum pennellii with 305 samples.

Results

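IL1-3 is an introgression line of tomato, a plant of the cultivar M82 that carries chromosome 1 sequence of the wild relative Solanum pennellii in place of its own. The line was compared with M82 through the 4 IL1-3 and the 4 M82 libraries among 305 libraries of 77 genotypes, and genes with chromosome 1 identifiers (3692 of the 29633 in the count table) were described apart from the 25941 with other identifiers. Root tips of 1 cm, 7 to 14 per library, were taken from seedlings 3 to 4 days after germination, and their RNA was read from a single end over 50 bp. The groups used were IL1-3 (4 libraries), the chromosome 1 lines IL1-4, IL1-4-18, IL1-1-2, IL1-1-3 and IL1-1-4 (4 each), 69 lines with segments on other chromosomes, the donor parent S. pennellii LA0716 (PENN, 3) and the recurrent parent M82 (4). All lines share the M82 background, each named group is a single genotype, the 69 lines being used together as a further reference, and every library pools several seedlings. The files pair no identifier with a gene name, so the root tip origin could not be checked on marker genes, and apart from a few genes that the paper itself identifies no role can be given. The identifiers are nonetheless informative, since their digits give the chromosome and the order along it.

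An introgression line separates a donor segment from the rest of the donor genome. A gene inside the segment carries the donor allele together with its own promoter, so its expression can differ in cis, and a gene outside carries the recurrent parent's allele, so a difference there is called trans. Lines with overlapping segments let the same donor alleles be measured in independent plants.

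The IL1-3 libraries held 2708760 to 6409884 counted reads and the M82 libraries 3078847 to 4835467, within the 683199 to 11338400 of the whole series. IL1-3 replicate 1 was the deepest and replicate 2 the shallowest of the 4. Log2 counts correlated by 0.971 to 0.982 between IL1-3 libraries and by 0.978 to 0.982 between M82 libraries, and no library of either group stood apart. The replicates of a genotype were pools of seedlings plated on different dates, and p-values measure the spread between such pools. In the main fit each gene's spread was estimated over the replicates of all 77 genotypes, not over those of IL1-3 and M82 alone. Expression is given in CPM (reads scaled to the library's size after TMM scaling, edgeR's correction for library composition), and fold changes as log2 of IL1-3 over M82 unless another pair is named. The threshold for a call was 0.01 for the p-value of edgeR's quasi-likelihood test, adjusted by Benjamini and Hochberg's method over all 19591 genes that passed the filter on low counts.

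IL1-3 differed from M82 in few genes, and most of these lay in a single run of chromosome 1. Of the 19591 genes tested, 169 (0.863%) were called, with 84 higher (0.429%) and 85 lower (0.434%) in IL1-3. Chromosome 1 held 107 of them among 2508 tested genes (4.27%), and the other chromosomes held 62 among 17083 (0.363%). On chromosome 1, 48 genes were higher and 59 lower, and elsewhere 36 were higher and 26 lower. No other chromosome came near this share, with values from 0.145% on chromosome 2 (3 genes) to 0.786% on chromosome 8 (11 genes).

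Along chromosome 1 the calls were not spread evenly. In windows of 50 tested genes in identifier order, each of the 11 windows wholly inside the segment held 5 to 11 called genes (10% to 22%). Of the 37 full windows wholly outside it, 30 held none and none held more than 2 (4%). The segment was taken as the run of genes that the authors' table labels cis in IL1-3, Solyc01g096470 to Solyc01g105770, bounded by the trans-labelled genes Solyc01g096420 and Solyc01g105880. That table labels only genes the authors called, so the ends of the run, though not the genes between them, rest on their test of the same libraries. The run holds 762 genes, of which 709 had a read in IL1-3 or M82 and 605 passed the filter. The window across its far end was the densest of all, with 15 of 50 genes called (30%), 13 of them lower in IL1-3, and 44 of its 50 genes inside the run. The next window held 0.

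**Figure D1:**
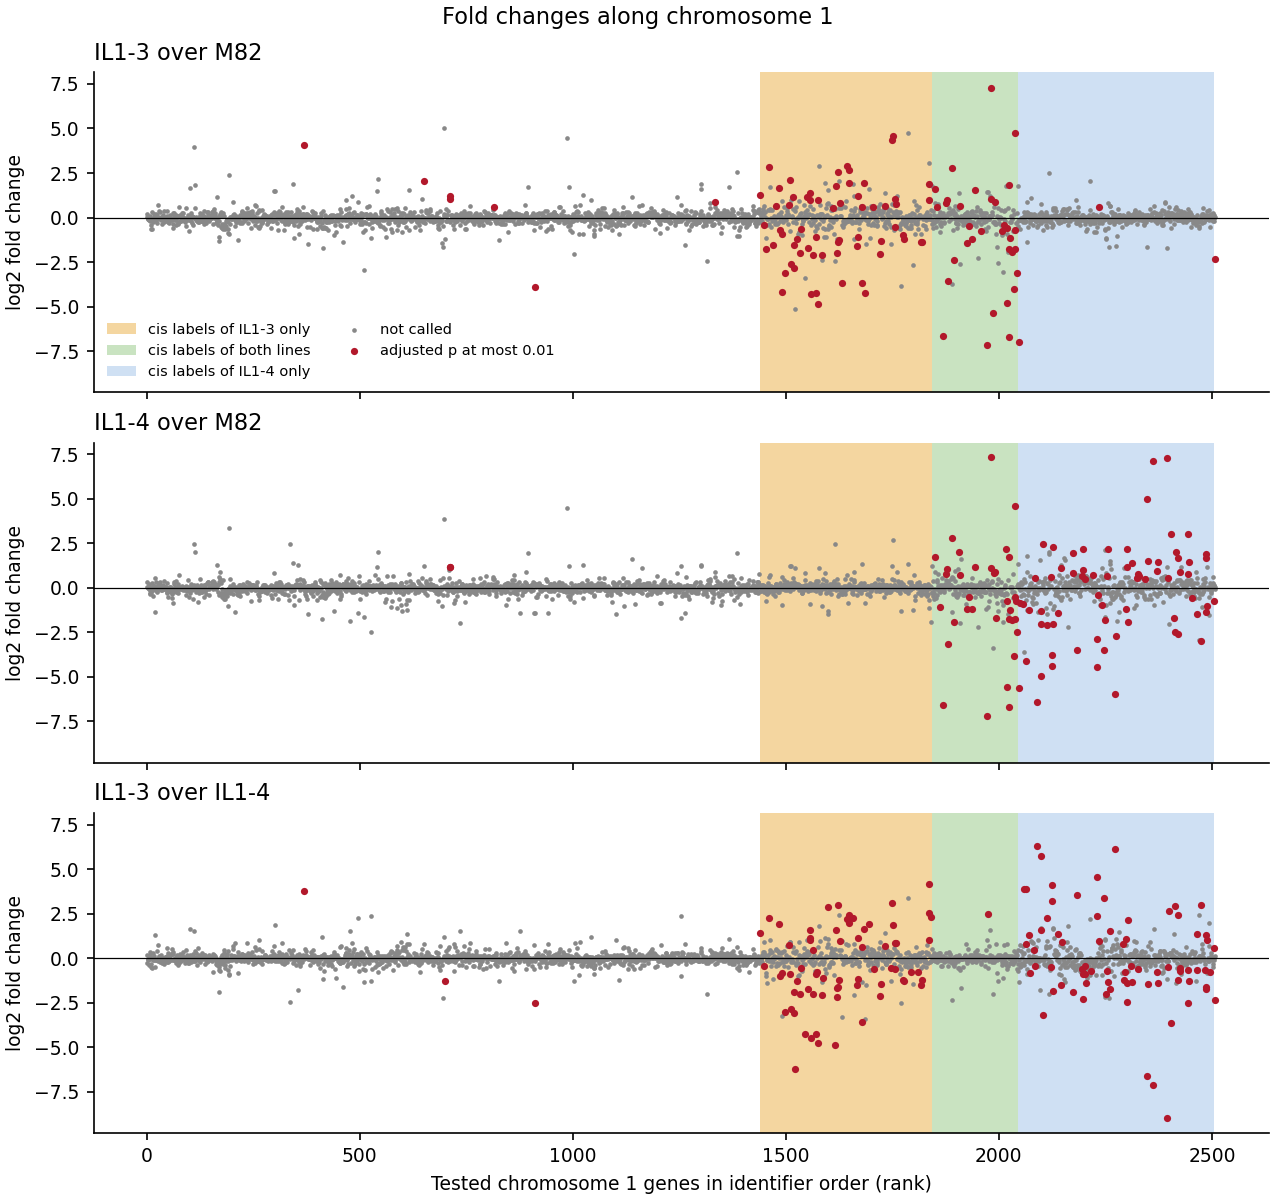
Log2 fold change of the 2508 tested chromosome 1 genes (y axis) in identifier order (x axis, rank) for IL1-3 over M82, IL1-4 over M82 and IL1-3 over IL1-4, with genes at an adjusted p of at most 0.01 in red and the stretches of cis labels shaded. The red points of IL1-3 over M82 fill the 2 shaded stretches of IL1-3, and those of IL1-3 over IL1-4 leave the stretch shared by both lines all but empty, with 1 of 201 genes called.

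Within the segment 97 of 605 tested genes were called (16%), against 10 of the 1903 tested chromosome 1 genes outside it (0.525%). Of the 97, 41 were higher and 56 lower in IL1-3. The median size of a called change was 1.54 on the log2 scale, 71 genes changed at least 2-fold and 20 at least 8-fold. The 41 that rose had a median log2 fold change of 1.22 and the 56 that fell a median of -1.73. Over all 605 tested genes of the segment, called or not, the median log2 fold change was -0.02 and the median size 0.34, against a median size of 0.16 over all genes. The summed level of the segment's tested genes was 41319 ± 1441 CPM in IL1-3 and 41523 ± 1416 CPM in M82 (SD, n = 4 each), a difference within the spread of the libraries (two-sided exact permutation p = 0.886). Single genes of the segment thus moved in both directions, and their sum was not detectably changed.

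The called chromosome 1 gene with the highest level, averaged over IL1-3 and M82, was Solyc01g103450. It stood at 723, 522, 658 and 654 CPM in IL1-3, against 396, 379, 381 and 309 CPM in M82. All 4 IL1-3 libraries lay above all 4 M82 libraries (log2 fold change 0.81, standard error 0.14, adjusted p = 1.1e-05, edgeR's quasi-likelihood test). IL1-4, which carries the same donor allele, had 639 ± 80.3 CPM (SD, n = 4), and PENN itself had 391 ± 14.3 CPM (SD, n = 3). The remaining 74 genotypes ranged from 268 to 421 CPM, so the high level was found in both lines that carry the allele and not in PENN. The part of read mapping in these differences was not tested.

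Solyc01g097760 was the gene of second highest level and fell. Its values were 174, 211, 176 and 231 CPM in IL1-3, against 769, 820, 814 and 777 CPM in M82. The groups were separated by a wide gap (log2 fold change -2.01, standard error 0.11, adjusted p = 6.3e-45, edgeR). PENN had 147 ± 17.0 CPM (SD, n = 3), and IL1-4, in which this gene lies before the first cis label, had 789 ± 71.0 CPM (SD, n = 4). The other 75 genotypes ranged from 651 to 1129 CPM.

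Solyc01g101040, in the stretch carried by IL1-3 but not by IL1-4, was also lower. It had 108, 139, 105 and 96.5 CPM in IL1-3, against 230, 180, 259 and 225 CPM in M82. The highest IL1-3 library lay below the lowest M82 library (log2 fold change -1.003, standard error 0.13, adjusted p = 3.4e-10, edgeR). IL1-4 stood at 257 ± 12.0 CPM (SD, n = 4) and PENN at 154 ± 8.74 CPM (SD, n = 3).

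Some genes of the segment were read in IL1-3 and not in M82, or the reverse. Solyc01g104870 had 24, 13, 23 and 12 reads in the IL1-3 libraries, against 0 reads in each M82 library. Set against a floor of 3 reads over the 4 M82 libraries, it was at least 22.6-fold higher in IL1-3. Its level was 4.29 ± 1.46 CPM in IL1-3 (SD, n = 4), 4.34 ± 0.79 CPM in IL1-4 (SD, n = 4) and 1.96 ± 0.63 CPM in PENN (SD, n = 3), so it was read in all 3 genotypes that carry the donor allele.

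Solyc01g104710 showed the opposite pattern. It had 0 reads in each IL1-3 library, against 13, 18, 11 and 22 reads in M82, and was at least 22.7-fold lower in IL1-3 by the same floor. No read fell on it in IL1-4 and 1 read in the 3 PENN libraries together. Solyc01g103390, chosen after its values were seen, followed it at a higher level, with 0.16, 0.38, 0.26 and 0.64 CPM in IL1-3, against 39.4, 32.2, 35.6 and 41.6 CPM in M82. IL1-4 had 0.38 CPM and PENN 0.41 CPM on average, whereas the other 74 genotypes ranged from 23.6 to 54.9 CPM (log2 fold change -6.66, standard error 0.35, adjusted p = 9.9e-46, edgeR). Inside the segment the reads of IL1-3 were mapped to S. pennellii sequence and those of M82 to M82 sequence, and the part of this in the counts was not tested.

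**Figure D2:**
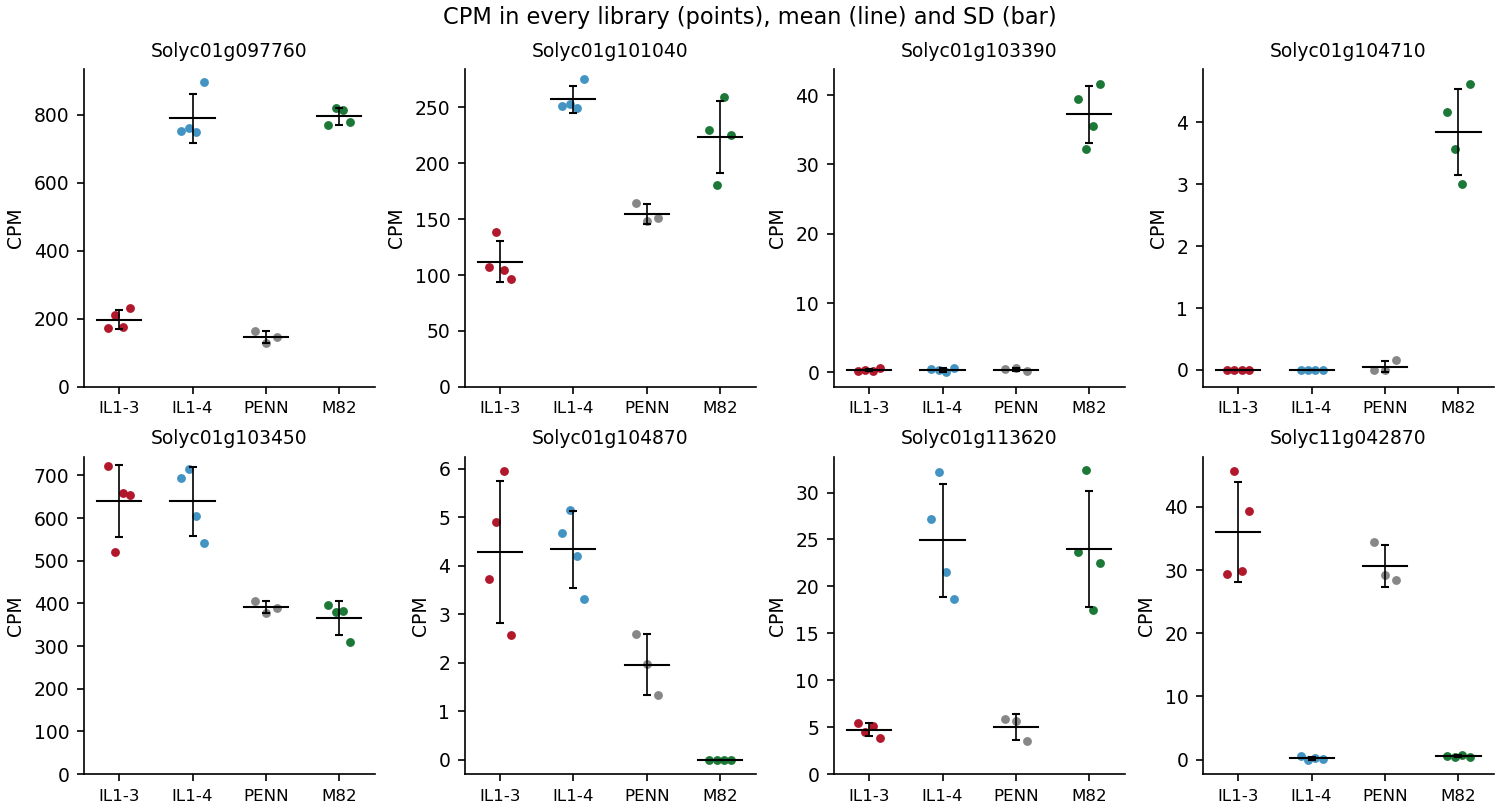
CPM of 8 genes (y axis, a linear scale for each gene) in every IL1-3, IL1-4, PENN and M82 library, with the group mean and SD. For Solyc01g103390 and Solyc01g104710 the libraries of IL1-3, IL1-4 and PENN lie near 0 and those of M82 stand apart, and for Solyc11g042870 on chromosome 11 only IL1-3 and PENN are high.

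The overlap with IL1-4 gave a comparison that uses no M82 library. The outermost cis labels of IL1-4 are those of Solyc01g103060 and Solyc01g112320, and genes between them were taken as donor in IL1-4. The last 201 tested genes of the IL1-3 segment were so taken as donor in both lines, 404 in IL1-3 only and a further 460 in IL1-4 only. Only genes the authors called have labels, so the assignment of genes near a border was not checked. In the IL1-3 stretch 70 of 404 genes (17.3%) were called between IL1-3 and IL1-4, and in the IL1-4 stretch 75 of 460 (16.3%), against 1.06% of all genes in this comparison. In the shared stretch 1 of 201 was called (0.498%), with 12 genes at an unadjusted p under 0.05, and the median size of the difference was 0.12 on the log2 scale. In that same stretch IL1-3 differed from M82 in 33 of 201 genes (16.4%) and IL1-4 differed from M82 in 34 (16.9%, against 0.73% of all genes), comparisons that share the M82 libraries.

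The gene called between the lines in the shared stretch, named after its values were seen, was Solyc01g104760. It had 2.94 ± 0.88 CPM in IL1-3, against 0.54 ± 0.54 CPM in IL1-4 (SD, n = 4 each; log2 ratio 2.49, standard error 0.43, adjusted p = 3.7e-06, edgeR). PENN had 5.07 ± 0.67 CPM (SD, n = 3) and M82 1.04 ± 0.78 CPM (SD, n = 4), and IL1-3 over M82 did not pass the threshold (adjusted p = 0.036, edgeR).

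Against the other chromosome 1 lines, whose segments lie elsewhere on the chromosome, the segment of IL1-3 gave similar counts. Of its 605 tested genes 101 were called against IL1-1-2, 103 against IL1-1-3, 115 against IL1-1-4 and 102 against IL1-4-18, shares of 16.7% to 19%. Over all genes these comparisons called 0.847%, 1.3%, 1.85% and 1.09%.

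IL1-3 was also set against the donor. PENN differs from M82 across the genome, and which reference its reads were mapped to is not stated, so the part of mapping in every PENN level and in every difference from PENN was not tested. In all, 33.7% of tested genes were called between IL1-3 and PENN. Inside the segment, where both carry the donor allele, 131 of 605 genes (21.7%) were called, 38 higher and 93 lower in IL1-3, where over all genes 16.3% were higher and 17.4% lower. On the rest of chromosome 1 it was 609 of 1903 (32%) and on the other chromosomes 5870 of 17083 (34.4%). The median size of the difference was 0.31 on the log2 scale in the segment and 0.44 on the other chromosomes. These shares are descriptions, since no test of their difference was run.

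**Figure D3:**
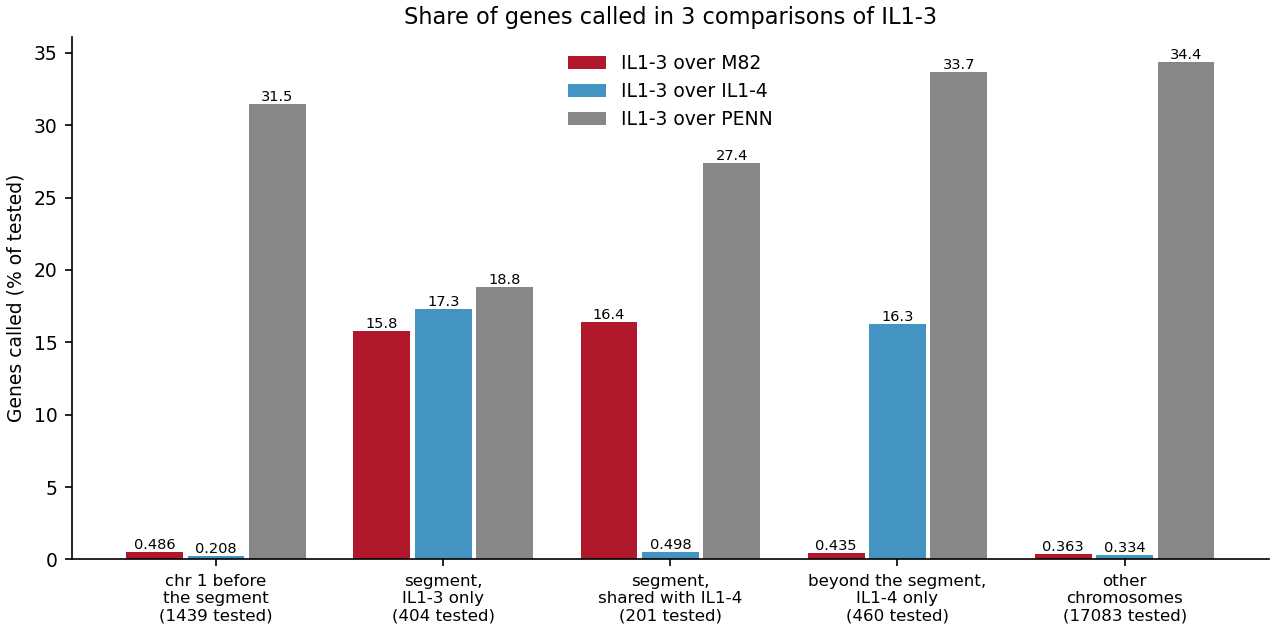
Share of tested genes called (y axis, %) in 5 stretches (x axis, with the number tested) for IL1-3 over M82, over IL1-4 and over PENN. The bars of IL1-3 over M82 stand at 15.8% and 16.4% in both stretches of the segment and under 0.5% in the others shown, and in the shared stretch the bar of IL1-3 over IL1-4 is at 0.498%.

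A pair of segment genes, chosen after their values were seen, stood away from the donor's level. Solyc01g105770, the last gene of the run, had 30.5, 3.77, 26.7 and 18.0 CPM in IL1-3, against 10.9, 5.37, 4.93 and 3.78 CPM in M82, and these groups overlapped (log2 fold change 1.80, standard error 0.88, adjusted p = 0.44, edgeR). PENN had 271 ± 45.9 CPM (SD, n = 3), far above every IL1-3 library. IL1-4 had 14.8 ± 19.8 CPM (SD, n = 4), with 44.4 CPM in its highest library. The means of the lines on other chromosomes ran from 0.72 to 146 CPM and 60.9% of them lay below IL1-3, and the authors' methods caution that counts of genes at an introgression's edge may be unreliable. Solyc01g104100 had 15.6, 8.68, 11.9 and 9.44 CPM in IL1-3, against 19.5, 14.1, 12.32 and 15.1 CPM in M82, a difference that did not pass the threshold (adjusted p = 0.70, edgeR). PENN had 0.45 ± 0.47 CPM (SD, n = 3) and was lower than IL1-3 (log2 ratio of IL1-3 to PENN 4.81, standard error 0.52, adjusted p = 5.7e-16, edgeR). IL1-4, which shares this stretch, had 12.9 ± 1.82 CPM (SD, n = 4).

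The 10 chromosome 1 genes called outside the segment comprised 7 before it, 2 after it in the stretch taken as donor in IL1-4, and 1 at the chromosome's end. The first in order was Solyc01g010610, a low gene with 12, 3, 4 and 7 reads in IL1-3, against 0, 0, 0 and 1 read in M82 (adjusted p = 0.0020, edgeR). PENN had no read on it. The call was lost without IL1-3 replicate 1 (adjusted p = 0.024) and without M82 replicate 1, 2 or 3 (adjusted p = 0.010, 0.026 and 0.011). The means of the lines on other chromosomes ran up to 9.64 CPM, with IL1-3, at 1.38 ± 0.38 CPM (SD, n = 4), among them.

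The last in order, Solyc01g113620, is also the last chromosome 1 gene in the table and carries a cis label in IL1-3 apart from the run. It had 5.45, 4.53, 5.18 and 3.86 CPM in IL1-3, against 23.7, 32.4, 17.5 and 22.5 CPM in M82, with no overlap (log2 fold change -2.33, standard error 0.22, adjusted p = 4.1e-19, edgeR). PENN was at 5.03 ± 1.34 CPM (SD, n = 3) and IL1-4 at 24.9 ± 6.02 CPM (SD, n = 4). Every one of the other 75 genotypes lay between 17.6 and 35.1 CPM, so IL1-3 and PENN stood apart together. Of the 4 tested genes beyond the labels of IL1-4 it was the only one called.

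Solyc01g105880 and Solyc01g108530 were the 2 genes called after the segment, named after their values were seen. Solyc01g105880, labelled trans and next after the last cis label, had 0 reads in each IL1-3 library, against 11, 17, 9 and 18 reads in M82. By the floor of 3 reads it was at least 19.5-fold lower. It lies at the edge of the introgression, and whether this enters its counts was not tested. IL1-4 had 1 read over its 4 libraries, PENN had 1.35 ± 0.94 CPM (SD, n = 3), and the other 74 genotypes ranged from 1.58 to 5.92 CPM. In IL1-4 it lies between the outermost cis labels, and IL1-3 and IL1-4 did not differ in it beyond the threshold (adjusted p = 0.98, edgeR). Solyc01g108530 was higher, with 41.9, 50.2, 56.7 and 47.2 CPM in IL1-3, against 35.5, 34.4, 33.7 and 28.2 CPM in M82 (log2 fold change 0.57, standard error 0.11, adjusted p = 0.00022, edgeR). The mean in IL1-3 was the highest of the 77 genotypes and that in IL1-4, 25.4 ± 2.88 CPM (SD, n = 4), lay below the 28.7 CPM of the lowest of the other lines. This call was lost without IL1-3 replicate 3 (adjusted p = 0.010) and without M82 replicate 4 (adjusted p = 0.011).

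Before the segment the called gene of highest level was Solyc01g073690. It had 363, 437, 391 and 325 CPM in IL1-3, against 195, 146, 216 and 169 CPM in M82 (log2 fold change 1.06, standard error 0.14, adjusted p = 1.2e-09, edgeR). IL1-4, in which it lies outside the outermost cis labels, stood at 403 ± 35.5 CPM (SD, n = 4), and IL1-3 ranked 24th of the 77 genotypes, which ran from 151 to 473 CPM. Only 7.25% of the other lines lay below M82. With the mean of the lines on other chromosomes as the reference its log2 fold change was 0.32 (adjusted p = 0.036, edgeR), so the call was lost.

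The 62 genes called on the other chromosomes depended more on single libraries. Their median change was 2.07 on the log2 scale, and 52 changed at least 2-fold. Of the 36 that rose, 19 stayed under 10 CPM in both groups. Leaving out IL1-3 replicate 1 gave 31 genes, IL1-3 replicate 3 39, M82 replicate 2 35 and M82 replicate 4 38, whereas the count in the segment stayed between 81 and 93. In all 8 fits that leave out a library of IL1-3 or M82, 21 of the 62 genes remained called, as did 68 of the 97 in the segment.

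The other lines gave a range for each gene. For each gene the mean in IL1-3 was set against the means of all lines whose segment is on neither chromosome 1 nor the gene's own chromosome. In the segment 93 of the 97 called genes had an IL1-3 mean outside the range of those lines, where 2.81% of all tested genes did. On the other chromosomes 12 of the 62 did, and 20 had an IL1-3 mean within the middle 80% of the lines. The M82 mean had at most 10% of the lines below it or at most 10% above it for 26 of these 62 genes and for 13 of the 97 in the segment, and for 10% of all genes. The IL1-3 mean lay in these outer parts for 42 of the 62 and for 97 of the 97, and for 18.6% of all genes. The genes were called on the same libraries of IL1-3 and M82, so these counts are descriptions and no test. Set against the mean of the 69 lines on other chromosomes, a comparison that shares its IL1-3 libraries with that against M82, 185 of the 605 tested genes of the segment and 144 of the 17083 on other chromosomes were called, where 1.74% of all genes were. The libraries of IL1-3 and M82 did not overlap for 96 of the 97 called genes and 57 of the 62, beside 6.64% of all tested genes, which restates the call and is read no further.

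**Figure D4:**
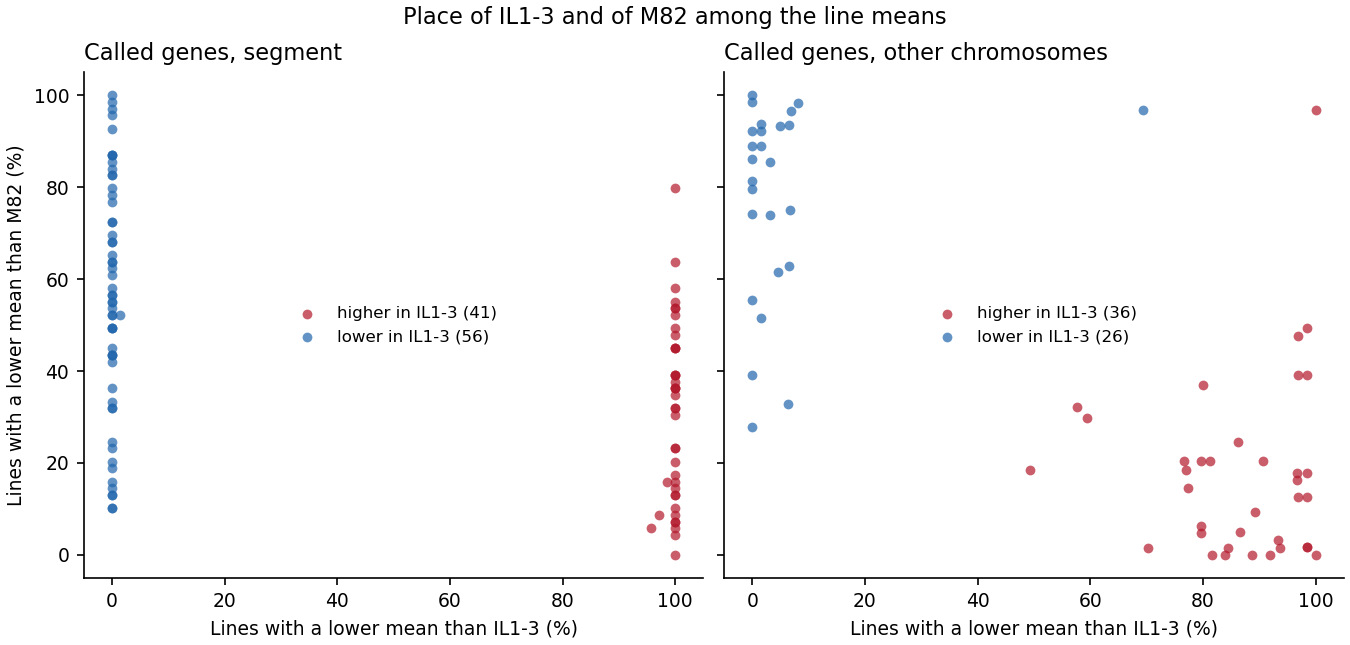
Each called gene placed by the share of lines with a lower mean than IL1-3 (x axis, %) and the share with a lower mean than M82 (y axis, %), for the 97 genes of the segment and the 62 on other chromosomes. In the segment IL1-3 is at or beside an extreme of the lines and M82 is spread between them. On other chromosomes at most 10% of the lines lie below or above IL1-3 for 42 of 62 genes, and below or above M82 for 26. Over all tested genes these shares are 18.6% and 10%, and the genes were called on these same IL1-3 and M82 libraries.

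The rise of the smallest p-value elsewhere, chosen after its values were seen, was that of Solyc11g042870 on chromosome 11. It had 29.4, 45.7, 29.8 and 39.3 CPM in IL1-3, against 0.64, 0.40, 0.82 and 0.42 CPM in M82 (log2 fold change 5.96, standard error 0.32, adjusted p = 4.7e-54, edgeR). PENN had 30.6 ± 3.28 CPM (SD, n = 3) and did not differ from IL1-3 beyond the threshold (log2 ratio of IL1-3 to PENN 0.22, standard error 0.18, adjusted p = 0.34, edgeR). In each of the other 75 genotypes the mean was at most 0.58 CPM, including IL1-4 at 0.24 CPM and the lines of chromosome 11.

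Solyc09g064290 on chromosome 9, also chosen after its values were seen, was read at a low level. It had 20, 6, 10 and 12 reads in IL1-3, against 0 in each M82 library, and was at least 15.1-fold higher by the floor of 3 reads. PENN had 0.79 ± 0.17 CPM (SD, n = 3) and was lower than IL1-3 (log2 ratio of IL1-3 to PENN 1.76, standard error 0.59, adjusted p = 0.0095, edgeR). IL1-4 had no read, and the other 75 genotypes reached at most 0.43 CPM.

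The genes with the largest fitted changes elsewhere varied widely among the lines. Solyc06g035940 on chromosome 6 had 1.24, 1.51, 0.26 and 0.86 CPM in IL1-3, against 283, 337, 291 and 265 CPM in M82 (log2 fold change -8.21, standard error 0.70, adjusted p = 7.9e-22, edgeR). PENN was as low, at 1.57 ± 0.52 CPM (SD, n = 3), and IL1-4 was high, at 355 ± 85.9 CPM (SD, n = 4). Of the 75 genotypes other than IL1-3 and PENN, 22 were below 5 CPM, 46 above 50 CPM and 7 in between, so its low level was shared with many lines. IL1-3 ranked 73rd of the 77.

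Solyc09g065440 on chromosome 9 had 38, 5, 14 and 12 reads in IL1-3, against 0 in each M82 library. By the floor of 3 reads it was at least 21.7-fold higher, a bound that leaves out the spread between libraries. The fitted log2 fold change was 7.16 with a standard error of 1.68. PENN stood far above both groups, at 116 ± 19.6 CPM (SD, n = 3), and the means of lines on the remaining chromosomes ran up to 22.4 CPM. IL1-4 had 3.04 ± 3.52 CPM (SD, n = 4) and was also called over M82 (adjusted p = 0.0089, edgeR). For IL1-3 over M82 the adjusted p was 0.0039 (edgeR), and 0.057 without IL1-3 replicate 1, the library with the most reads on it. Leaving out any 1 M82 library gave 0.014 to 0.030. Among the 36 genes that rose on other chromosomes PENN was above M82 for 27 (75%), and among the 26 that fell for 3 (11.5%), where over all 17083 tested genes there it was above M82 for 46.5%. The fold changes and these shares rest on the same M82 libraries, so the choice of genes pulls the shares the same way. PENN was above IL1-3 for 19 of the 36 that rose (52.8%) and 15 of the 26 that fell (57.7%). Over all 17083 genes it was above IL1-3 for 46.3%. Those shares rest on the IL1-3 libraries that made the calls, and none of these shares is read further.

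**Figure D5:**
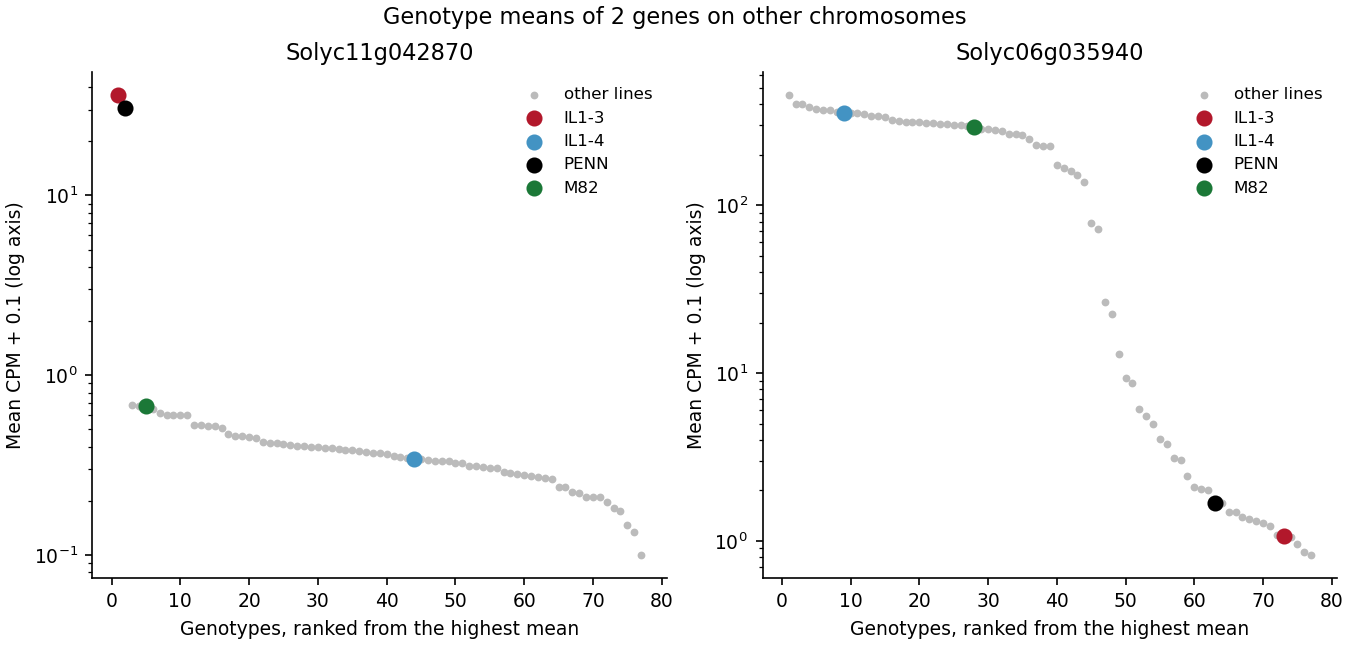
Mean CPM plus 0.1 (y axis, log scale) of the 77 genotypes, ranked from the highest (x axis), for Solyc11g042870 and Solyc06g035940. For the gene on chromosome 11 only IL1-3 (36.0 CPM) and PENN (30.6 CPM) lie above 0.58 CPM, and for the gene on chromosome 6 the genotypes spread between 0.72 and 453 CPM with M82 among the high and IL1-3 among the low.

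The 3 genes described here that have a name in the paper were not called. Solyc01g014230, a U-box domain protein that served as the qPCR reference and lies before the segment, had 26.6 ± 1.89 CPM in IL1-3 and 31.1 ± 4.08 CPM in M82 (SD, n = 4 each; log2 fold change -0.22, standard error 0.14, adjusted p = 0.63, edgeR). Solyc07g008570, the purple acid phosphatase gene SlPAP27, had 19.96 ± 3.32 CPM in IL1-3 and 19.93 ± 2.19 CPM in M82 (SD, n = 4 each), while PENN was at 71.3 ± 11.35 CPM (SD, n = 3). Solyc06g054080, CDC73, had 23.0 ± 3.23 CPM in IL1-3 and 21.4 ± 2.35 CPM in M82 (SD, n = 4 each; adjusted p = 0.91, edgeR). In all 3 the libraries of IL1-3 and M82 overlapped. Of the 21 genes described here 15 had groups of libraries that did not overlap, beside 6.64% of all tested genes. They so reached p = 0.0286 in a two-sided exact permutation test, the smallest that 4 against 4 libraries allow. Most of the 21 were named because they were called on these same libraries. The outcome therefore restates the choice of genes and is read no further.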

How the data were processed

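Root tips of seedlings of IL1-3, M82 and the other genotypes were profiled by RNA-seq. The authors mapped reads with BWA to coding sequences, which were S. pennellii sequence inside each line's introgression and M82 sequence outside it, and deposited the counts per gene and library, obtained with SAMtools and not normalized. The sources used here do not give the versions. Their tables of TMM-scaled CPM, rounded to whole numbers, and of fold changes and p-values were not used, except for the cis and trans labels. The table's 9 per-sample columns that matched no label were not used.

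In R 4.3.3, edgeR 4.0.16 was run on the deposited counts of all 305 libraries: TMM scaling, filterByExpr (19591 genes kept), glmQLFit with genotype as the only term and glmQLFTest, with Benjamini-Hochberg adjustment within each comparison. CPM values shown use the TMM-scaled library sizes of the genes kept. On simulated counts of IL1-3 against M82, 200 of 18561 genes were changed, each of the 200 at a level of at least 5 CPM. Of the genes with a log2 change of 1, 82% were called, and of those with 2, 100%, with 3 false calls. The simulated libraries were independent, without an effect of plating date or sequencing pool. Their spread was taken from the main fit, and apart from the changes made every genotype had the same mean. The simulation so tried the method on its own assumptions. No change in a gene of lower level was simulated, so these shares do not cover such genes. Permutation tests used scipy 1.17.1. Depth sets the precision of low genes, and floors cover counting error only.

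The paper's methods state that the replicates were grown at different times and that the libraries of each replicate were pooled for sequencing. Libraries of the same replicate number were taken to share a plating date and a sequencing pool, as the labels give the number and no date. Deviations from the genotype means correlated by a mean of 0.028 between the same numbers in IL1-3 and M82 (-0.137 to 0.205) and -0.0094 between different ones. The named genes were the 2 largest rises and falls, the 4 called chromosome 1 genes of highest mean, the first and last called there, and 3 of those the paper names by identifier, with others marked as chosen later. Gene lists by function and cell type markers could not be matched to identifiers. The line, its members and the lists were chosen with earlier results of these data known. The alternatives changed scaling, filter, test, threshold, block, reference and single libraries.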

Additional observations from a re-analysis of the deposited data

Results flagged for a closer look

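In 2 of 56 groups of 4 libraries that were checked, 1 library lay far from the others. The rule flags about 5% of groups of normally spread values by chance, a share that need not hold for groups at or near 0 reads. For Solyc01g010610 the far library was M82 replicate 4, at 0.21 CPM (1 read) beside 0 in the other M82 libraries. For the summed level of the 4 tested genes at the end of chromosome 1 it was IL1-3 replicate 1, at 312 CPM. The difference between IL1-3 and IL1-4 in Solyc01g104760, a gene of the stretch taken as donor in both lines, had a log2 ratio of 2.49 by the direct test.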

How the results depend on the processing

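The count on chromosome 1 (107) was 196 with the mean of the lines on other chromosomes as the reference and 161 at an adjusted p of at most 0.05. The count elsewhere (62) was 32 with a filter at a mean of 5 CPM, 144 against the lines on other chromosomes and 167 at an adjusted p of at most 0.05. Under the filter at 5 CPM 26 of the 62 genes were not tested, 32 stayed called and 4 lost the threshold. With IL1-3 and M82 fitted alone the count elsewhere was 56 by the main test, 148 by edgeR's exact test and 102 by DESeq2. Of the 62 genes the main test so fitted kept 26, the exact test 40 and DESeq2 34. In each of these fits 19 of the 62 did not pass the filter. Leaving out 1 library of IL1-3 or M82 gave 89 to 101 genes on chromosome 1 and 31 to 62 elsewhere. Apart from genes that a filter left out, the cause of these shifts was not tested. The replicate block, which uses the pairing of libraries by number, gave 123 and 83 genes, kept all 169 calls and changed no call of a named gene.

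The alternatives for the counts of the segment and of the comparisons with IL1-4 and PENN were added after the data were seen. The count in the segment (97) was 112 with the block, 62 with IL1-3 and M82 fitted alone, 185 against the lines on other chromosomes and 81 to 93 without 1 library. Between IL1-3 and IL1-4 the shared stretch gave 1 gene whichever library of either line was left out, and 0 of 148 by edgeR at a mean of 5 CPM, where Solyc01g104760 was filtered out and 9 genes had an unadjusted p under 0.05. The stretch of IL1-3 only (70) gave 43 with that filter and 51 to 62 without 1 library. IL1-3 against PENN in the segment (131) gave 82 with that filter, 80 at a change of at least 2-fold and 105 to 126 without 1 library.

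Among the 21 named genes 3 results turned round, all for Solyc07g008570, which was not called: log2 fold changes of -0.041 to 0.13 without 1 library (-0.037 without IL1-3 replicate 4, -0.041 without M82 replicate 2) and -0.024 against the lines on other chromosomes. Of the other results, 295 kept their side of the threshold, 14 lost it and 2 gained it. A named gene that a setting's filter left out gave no result there and is not counted. Solyc09g065440, for example, was not tested at a mean of 5 CPM or with IL1-3 and M82 fitted alone. At these depths genes of a few reads per library set the limit, and 28 of the 62 genes called elsewhere and 34 of the 97 in the segment stayed under 10 CPM in both groups.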
